A study of Mus musculus with 10 samples.

Results

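The genes described here are 10 genes of glycolysis and the response to low oxygen, taken by name from the rows listed in both single-cell count tables of the series, out of 29183 genes that both tables list. The rows used for the *Grem1* lineage run in nearly alphabetical order to symbols beginning with Gm5. Later genes were not analysed here in that lineage, so every list compared below holds early symbols only, and each level is relative to these 29183 genes. They fall into 4 roles. *Aldoa*, *Eno1* and *Gapdh* encode the glycolytic enzymes aldolase A, enolase 1 and glyceraldehyde-3-phosphate dehydrogenase. *Egln1* and *Egln3* encode prolyl hydroxylases that mark the HIF alpha subunits for destruction when oxygen is present. *Bnip3*, a mitochondrial protein of mitophagy, *Ddit4*, an inhibitor of mTORC1 signalling, and *Ankrd37*, an ankyrin repeat protein, are induced by low oxygen. *Car9* and *Car12* encode membrane carbonic anhydrases, which balance pH outside the cell.

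Cartilage has no blood vessels, and its cells live at low oxygen and rely largely on glycolysis for energy. In low oxygen the prolyl hydroxylases slow, HIF1A and EPAS1 (HIF2A) persist, pair with ARNT and bind DNA at a short core motif, and the transcription of glycolytic enzymes, *Bnip3*, *Ankrd37*, *Egln3* and *Car9* rises. HIF1A is known for keeping growth plate chondrocytes alive, and EPAS1 is known for its part in articular cartilage.

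The cells came from hind limbs of C57BL/6 mice that carried a TdTomato reporter. *Grem1*-TdT mice, aged 5 to 6 weeks when tamoxifen chow began, were killed after 2 weeks of it, articular cartilage (AC) and growth plate (GP) were dissected out and digested with collagenase II, and live TdT+ cells were sorted. *Lepr*-TdT mice, matched in age, gave live TdT+ cells of whole bones broken up and digested with collagenase I, sorted in addition as CD45-, Ter119- and CD31-. The *Grem1* reporter follows an inducible creERT and the *Lepr* reporter a constitutive cre, so the *Lepr* lineage holds every descendant of a cell that ever expressed the driver. Cells were placed at random in 96-well plates, giving 8 *Grem1*-TdT plates with 768 wells in their table and 2 *Lepr*-TdT plates with 162, and the labels do not say which plates hold AC or GP cells or how many mice stand behind a plate.

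A well was kept with at least 350 detected genes, which left 684 *Grem1*-lineage and 160 *Lepr*-lineage cells. The minimum was counted over the 50508 listed genes in the *Lepr* lineage and over the 29183 in the *Grem1* lineage, and over the 29183 genes 77 *Lepr*-lineage cells reached it. *Grem1*-lineage cells were divided by the UMIs (counted molecules) of 4 genes. Cells with more UMIs of *Clu*, *Cilp* and *1500015O10Rik* together than of *Cnmd* are called *Clu*-side (414 cells), and the others *Cnmd*-side (270 cells, 4 of them ties, with 25 cells within 2 UMIs of the divide). *Clu* and *Cilp* are known from articular cartilage and *Cnmd*, chondromodulin, from growth plate and deep cartilage. A list of 10 articular markers summed to between 42831 and 55220 CPM (UMIs scaled to a common library total) in *Clu*-side and to between 4344 and 7480 CPM in *Cnmd*-side cells. For 4 growth plate markers the sums were 5792 to 13996 and 25321 to 40197 CPM, and the 4 genes of the divide are among these markers. The growth plate markers outside the divide did not share a direction. *Epyc* and *C1qtnf3* were lower in *Clu*-side cells (log2 fold change -4.05 and -3.33, adjusted p = 4.2e-09 and 1.9e-05), and *Col10a1*, the collagen of hypertrophic cartilage, was higher (2.33, SE 0.53, adjusted p = 0.0016). Chondrocyte markers summed to between 139026 and 167798 CPM on the *Grem1*-lineage plates and to 117 and 6624 CPM on the *Lepr*-lineage plates. Marrow stroma markers summed to between 26559 and 36945 CPM in the *Lepr* lineage and to at most 55.7 CPM in the *Grem1* lineage. The labels name the lineages and no cell type. Osteoblast markers stood apart on 3 *Grem1*-lineage plates. They summed to 44094 and 53486 CPM in *Clu*-side cells of plates 5 and 7 and to between 1033 and 5190 CPM on the other 6, and to 26334 CPM in *Cnmd*-side cells of plate 9 and between 1004 and 7062 CPM on the other 7. In the *Lepr* lineage they summed to 17898 and 3551 CPM. Haematopoietic markers summed to between 5505 and 7302 CPM in the *Lepr* lineage and 0 and 3606 CPM in the *Grem1* lineage, and erythroid and endothelial markers to at most 52.3 CPM in any group. Summed over kept cells, a plate held between 133289 and 179071 UMIs in the *Grem1* lineage, and 64310 and 59981 UMIs over the same genes in the *Lepr* lineage, where these genes took 40.9% of all UMIs. A cell held a median of 1217 UMIs in the *Clu*-side group, 2218.5 in the *Cnmd*-side group and 505 in the *Lepr* lineage over these genes. All 96 well barcodes recur on every *Grem1*-lineage plate and 70 occur on both *Lepr*-lineage plates, since a barcode marks a well position.

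The core of the motif bound by HIF is ACGTG or GCGTG. In the 250 bases before the RefSeq transcript starts (GRCm38.p6), ACGTG on either strand occurred for 7 of the 10 genes (*Aldoa*, *Egln1*, *Egln3*, *Bnip3*, *Ddit4*, *Ankrd37* and *Car9*) and for 18.5% of all 27025 genes with such a window. GCGTG on either strand occurred for 6 of the 10 genes, which have 14 windows, and in 28.2% of the 32851 windows of all genes. That share counts windows and not genes. For ACGTG the share of windows was 16.6%, below its share of genes. Both motifs are short, an occurrence is a match of letters and not a bound site, and the genes were not picked at random. Windows are shown for 4 of the genes whose RNA differed between cell groups or lineages in the counts. *Aldoa* and *Egln1* also differed and are not shown. Capitals mark ACGTG or GCGTG on either strand, and bases inside the annotated gene are left out (13 for *Bnip3* and 64 for *Ddit4*). The run CACGTG in *Bnip3* reads the same on both strands, so it counts once for each strand and the matches overlap.
*Bnip3* upstream window, chr7:138909520-138909756, minus strand: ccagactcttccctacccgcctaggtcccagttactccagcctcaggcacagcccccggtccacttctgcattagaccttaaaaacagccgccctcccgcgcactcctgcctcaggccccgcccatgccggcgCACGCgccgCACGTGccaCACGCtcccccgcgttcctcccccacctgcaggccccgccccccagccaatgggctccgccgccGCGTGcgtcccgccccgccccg
*Ddit4* upstream window, chr10:59951835-59952020, minus strand: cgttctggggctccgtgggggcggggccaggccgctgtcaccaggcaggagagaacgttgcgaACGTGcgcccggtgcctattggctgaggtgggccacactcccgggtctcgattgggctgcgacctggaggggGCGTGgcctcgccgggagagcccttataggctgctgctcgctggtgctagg
*Eno1* upstream window, chr4:150236458-150236707, plus strand: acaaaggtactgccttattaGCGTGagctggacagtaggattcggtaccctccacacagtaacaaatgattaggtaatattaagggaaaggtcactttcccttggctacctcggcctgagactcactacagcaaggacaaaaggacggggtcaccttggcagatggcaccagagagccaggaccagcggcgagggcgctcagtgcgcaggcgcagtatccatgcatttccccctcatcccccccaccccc
*Car12* upstream window, chr9:66713436-66713685, plus strand: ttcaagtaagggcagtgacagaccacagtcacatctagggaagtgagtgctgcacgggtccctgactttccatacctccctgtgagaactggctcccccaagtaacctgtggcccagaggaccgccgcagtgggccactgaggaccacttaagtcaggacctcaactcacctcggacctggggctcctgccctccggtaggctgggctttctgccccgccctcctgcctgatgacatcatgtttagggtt
*Bnip3* and *Ddit4* carried both motifs, the *Eno1* window shown held only GCGTG, and the *Car12* window held neither. The other *Eno1* windows, not shown, held 2 matches of GCGTG each and none of ACGTG.

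The first comparison set *Clu*-side beside *Cnmd*-side cells of the *Grem1* lineage. *Bnip3* and *Aldoa* were higher in *Clu*-side cells, *Car12* and *Eno1* were lower, and the order held on 8 of 8 plates for each of the 4. How many of all tested genes kept their order on every plate was not counted. The order is therefore not read as particular to the members. Of the 5 members tested between *Clu*-side and *Cnmd*-side cells, 2 rose (*Aldoa* and *Bnip3*), 2 fell (*Eno1* and *Car12*) and 1 did not pass the test. Among all 1075 tested genes 41.3% were called, 19.7% higher and 21.6% lower in *Clu*-side cells, so the share of members called is not read as particular to them. The calls of all genes were 212 higher and 232 lower, and with plain library totals they were 133 higher and 394 lower. The median log2 fold change was -0.16 over the 5 members and -0.02 over all tested genes. The enzymes, the HIF targets and the carbonic anhydrase did not move in 1 direction. Of 6 osteoblast markers tested, 1 rose (*Col1a2*, 1.92, adjusted p = 0.027), 1 fell (*Alpl*, -1.13, adjusted p = 0.0035) and 4 did not pass. Without plates 5, 7 and 9, where these markers were high, *Eno1* (adjusted p = 0.029), *Bnip3* (1.16) and *Car12* (-3.05) remained past the threshold and *Aldoa* lost its call (0.47, adjusted p = 0.080). Fewer plates were left in that fit, and the part of osteoblast content in these differences was not tested.

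Levels below are normalised CPM of the UMIs summed over the cells of a plate, on 1 scale for all groups, so that a cell with more UMIs weighs more. *Eno1* was lower in *Clu*-side cells than in *Cnmd*-side cells on 8 of 8 plates. *Clu*-side sums ran from 868 to 1650 with a median of 1186, and *Cnmd*-side sums from 1213 to 4410 with a median of 1876. The ranges overlapped across plates although each plate gave the same order. The fitted log2 fold change of *Clu*-side over *Cnmd*-side cells was -0.88 (SE 0.26, adjusted p = 0.010, 8 plates). *Eno1* (chromosome 4 of GRCm38, 150236721 to 150248879, plus strand) also showed a plate pattern. On plates 1, 2 and 4 its *Cnmd*-side sums ran from 2954 to 4410 and on plates 5 to 9 from 1213 to 2061, and its *Clu*-side sums ran from 1541 to 1650 and from 868 to 1341. The fold change was -1.12 within plates 1, 2 and 4 and -0.55 within plates 5 to 9, a division of the plates made after their values were seen. Over the same plates the summed level of 9 genes of the dissociation response (such as *Fos* and *Egr1*) in *Cnmd*-side cells ran from 15645 to 21571 on plates 1, 2 and 4 and from 31369 to 39523 on plates 5 to 9, and its part in the *Eno1* pattern was not tested. In *Clu*-side cells that level ran from 18041 to 29517 and from 23926 to 31935. Between the cell groups 1 of these 9 genes fell in *Clu*-side cells (*Fosb*, -0.97, adjusted p = 0.013) and 8 did not pass. With the plate as a block *Egr1* also rose (0.76, adjusted p = 2.0e-04) and *Atf3* and *Fos* also fell (-0.57 and -0.44, adjusted p = 0.030 and 0.037).

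*Aldoa* (chromosome 7, 126795234 to 126800751, minus strand) had the opposite order. It was higher in *Clu*-side cells on 8 of 8 plates, with sums from 1293 to 1761 (median 1475) against 783 to 1387 (median 1020) in *Cnmd*-side cells. The highest *Cnmd*-side plates overlapped the lowest *Clu*-side plates. The log2 fold change was 0.55 (SE 0.14, adjusted p = 0.0046), and it depended on the scaling. With plain library totals in place of TMM factors, *Aldoa* gave 0.21 (adjusted p = 0.32), a scaling under which the median of all tested genes moved by -0.32, so that *Aldoa* stood about as far above it. Among plates 1, 2 and 4 alone it gave 0.35 (adjusted p = 0.21) and among plates 5 to 9 alone 0.75, past the threshold.

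*Gapdh* (chromosome 6, 125161715 to 125166467, minus strand) held only 114 UMIs over all kept *Grem1*-lineage cells and was too low to be tested between the cell groups. Its sums ran from 35.5 to 163.5 in *Clu*-side cells and from 35.2 to 162 in *Cnmd*-side cells, and the ranges were nearly the same. This gene shares its sequence with many others. Of 81 annotated genes with at least 95% identity to the *Gapdh* transcript over 100 bases or more, 75 are processed pseudogenes, 67 are listed in both tables, and 62 of these held 2299 UMIs in the *Grem1*-lineage table beside 118 for *Gapdh* itself. In the *Lepr*-lineage table the copies held 553 UMIs beside 9, a sum that also takes in copies listed for that lineage only. Summed with its listed copies, *Gapdh* had sums from 1471 to 3123 (median 2116) in *Clu*-side cells and from 1386 to 3138 (median 1595) in *Cnmd*-side cells, and the log2 fold change was 0.17 (SE 0.21, adjusted p = 0.53). Its *Cnmd*-side sums ran from 2287 to 3138 on plates 1, 2 and 4 and from 1386 to 1657 on plates 5 to 9. In *Clu*-side cells they ran from 1857 to 2415 and from 1471 to 3123, so the plate sets overlapped there.

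*Eno1* has 3 such copies, 2 of them listed in both tables. Its copy *Eno1b* held 1902 UMIs in the *Grem1*-lineage table beside 2241 for *Eno1*. Of 533 wells with a UMI of either gene, 251 had equal counts of both and 447 (83.9%) differed by at most 1. *Eno1b* was also lower in *Clu*-side cells (log2 fold change -0.93, SE 0.27, adjusted p = 0.010). How reads that match several genes were counted is not given in the sources used here, so the values of *Eno1* and *Eno1b* may rest on the same molecules. *Eno1* summed with its 2 listed copies gave -0.91 (SE 0.26, adjusted p = 0.0092). *Bnip3* has 4 copies, of which 1 is listed, with 8 UMIs, and the other 7 genes have none. The exons of *Aldoa*, *Gapdh*, *Bnip3*, *Ankrd37* and *Car9* overlap genes on the other strand, and whether the counting used strand is not given in the sources used here.

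**Figure D1:**
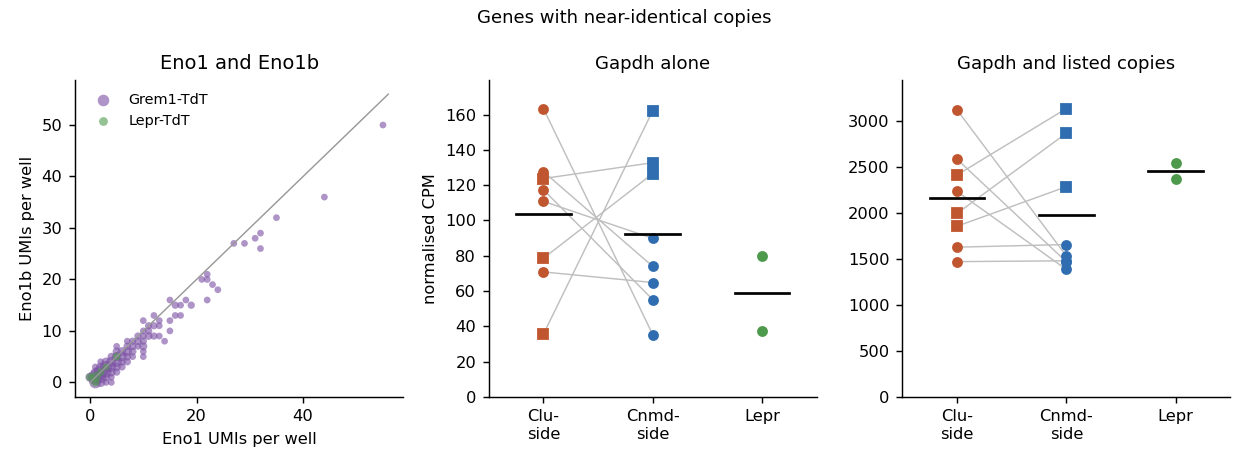
UMIs per well of *Eno1* against *Eno1b* (left, larger points for more wells, diagonal for equal counts), and normalised CPM per plate of *Gapdh* alone and of *Gapdh* with its listed near-identical copies (middle and right, lines join the cell groups of a plate, squares are *Grem1*-lineage plates 1, 2 and 4, bars are means). The wells lie along the diagonal, and the *Gapdh* axis rises from at most 163.5 to 3138 once copies are added.

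*Bnip3* (chromosome 7, 138890836 to 138909519, minus strand) was the member with the largest rise in *Clu*-side cells among those tested. Its sums ran from 245 to 509 (median 386) in *Clu*-side cells and from 121 to 251 (median 174) in *Cnmd*-side cells. All 8 plates were higher in *Clu*-side cells, and only the lowest *Clu*-side plate fell within the *Cnmd*-side range. The log2 fold change was 1.08 (SE 0.19, adjusted p = 1.4e-04), and it stayed past the threshold on plates 1, 2 and 4 alone (0.94) and on plates 5 to 9 alone (1.23).

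*Ddit4* (chromosome 10, 59949669 to 59951834, minus strand) did not pass the test. Its sums ran from 73.9 to 303 (median 163) in *Clu*-side cells and from 120 to 266 (median 212) in *Cnmd*-side cells, with a log2 fold change of -0.16 (SE 0.28, adjusted p = 0.66). With every cell given the same weight, *Ddit4* was lower in *Clu*-side cells on 7 of 8 plates (mean log2 difference -0.78 ± 0.69, SD, n = 8, p = 0.016, exact two-sided sign-flip permutation test). The 42 *Clu*-side cells with the most *Ddit4* UMIs held 81.7% of its 82 UMIs there. The same fraction of *Cnmd*-side cells, the top 27, held 54.7% of 137 UMIs. Such a share rises as a gene has fewer UMIs and was not corrected for depth, so it is given as a description only.

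*Car12* (chromosome 9, 66713686 to 66766845, plus strand) separated the cell groups most. Its *Clu*-side sums ran from 13.8 to 301 (median 127) and its *Cnmd*-side sums from 369 to 992 (median 753), and the groups did not overlap. The log2 fold change was -2.44 (SE 0.31, adjusted p = 2.5e-06), a 5.43-fold difference. *Car12* passed the filter on low counts through the *Cnmd*-side group, where it was high. A single *Cnmd*-side cell held up to 17 *Car12* UMIs and a *Clu*-side cell at most 2.

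The remaining members were sparse and were not tested between the cell groups. *Egln1* (chromosome 8, 124908587 to 124949324, minus strand) held 30 *Clu*-side and 40 *Cnmd*-side UMIs, and *Egln3* (chromosome 12, 54178981 to 54203860, minus strand) held 14 and 6. *Ankrd37* (chromosome 8, 45996902 to 46005707, minus strand) held 12 and 4. With every cell given the same weight, *Egln1* was higher in *Clu*-side cells on 4 plates and lower on 4 (p = 0.43, exact two-sided sign-flip permutation test). *Egln3* and *Ankrd37* were each higher in *Clu*-side cells on 5 plates and lower on 1 (p = 0.063 and 0.094, same exact permutation test, which with 8 plates cannot go below 0.0078). *Car9* (chromosome 4, 43506966 to 43513729, plus strand) had 0 UMIs in 684 *Grem1*-lineage and 160 *Lepr*-lineage cells, which allows a share of cells with a UMI of up to 0.439% and 1.88%.

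**Figure D2:**
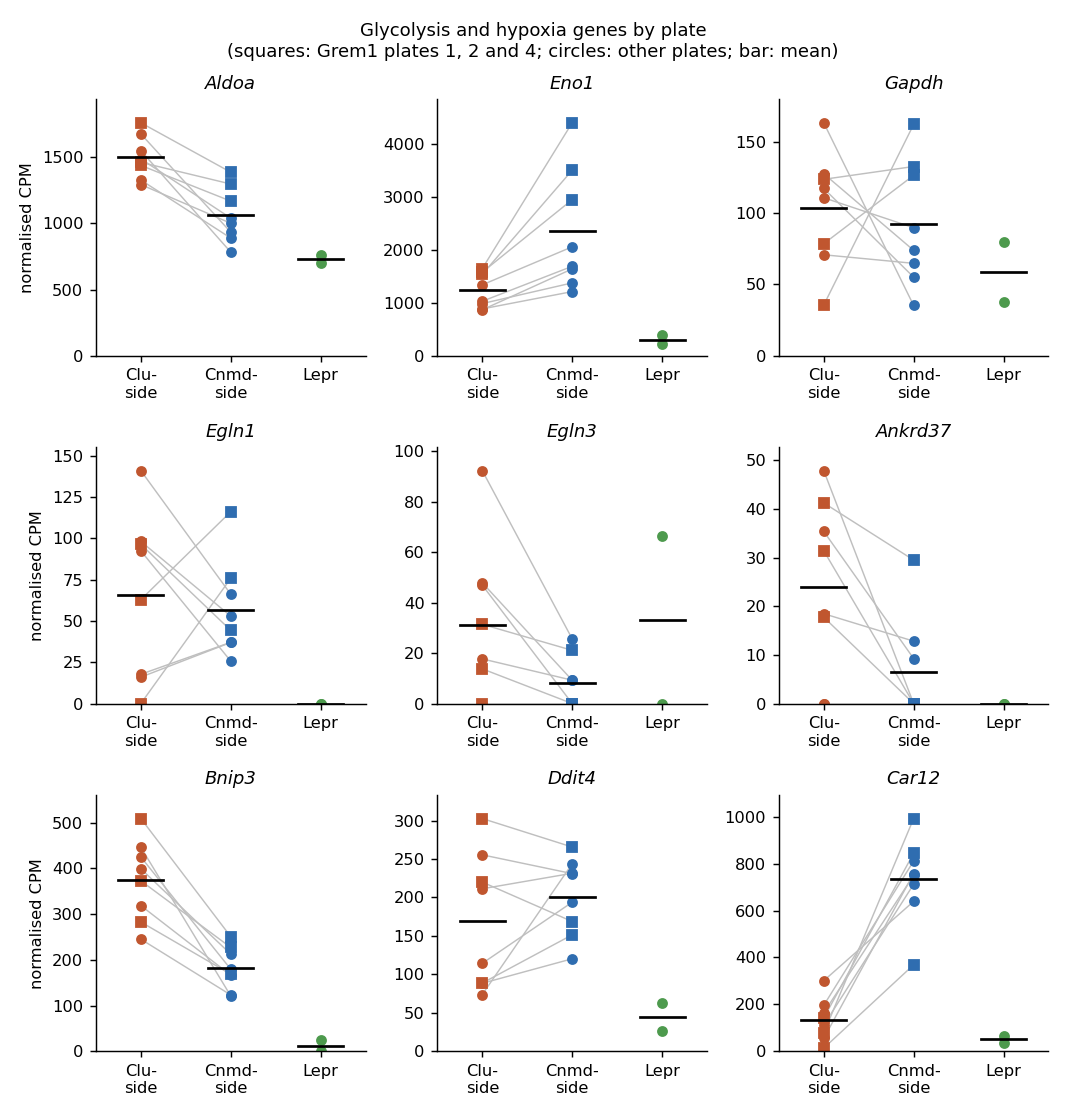
Normalised CPM of 9 members (*Car9* had no UMI) per plate in *Clu*-side cells, *Cnmd*-side cells and *Lepr*-lineage cells. Grey lines join the groups of a plate, squares are *Grem1*-lineage plates 1, 2 and 4, and bars are means. *Aldoa* and *Bnip3* fall and *Eno1* and *Car12* rise from *Clu*-side to *Cnmd*-side cells on 8 of 8 plates.

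*Cnmd*-side cells were deeper, so shares of cells with a UMI were also compared after thinning every cell to 796 UMIs, which left out 60 *Clu*-side and 8 *Cnmd*-side cells. At equal depth *Bnip3* was seen in 24.9% ± 5.6 of *Clu*-side and 12.5% ± 4.85 of *Cnmd*-side cells (SD, n = 8 plates), a difference of 12.4 points on 8 of 8 plates (p = 0.0078, exact two-sided sign-flip permutation test, the smallest it can give). Without thinning the shares were 32.4% and 31.9%, and the difference was 0.53 points (p = 0.86, same exact test). *Aldoa* turned its direction with depth. It was seen in 72.9% of *Clu*-side and 80.4% of *Cnmd*-side cells without thinning, and in 60.2% ± 10.4 and 49.7% ± 7.79 at equal depth (7 of 8 plates, p = 0.031, exact permutation test). *Eno1* was seen in 53.8% ± 13.7 of *Clu*-side and 74.9% ± 11.3 of *Cnmd*-side cells at equal depth, and *Car12* in 7.44% ± 5.81 and 39.9% ± 8.94 (SD, n = 8, p = 0.0078 for each, same exact permutation test). *Ddit4* was seen in 9.59% and 14.2% of cells at equal depth (p = 0.086, exact permutation test), a difference that misses the threshold, and in 13.6% and 31.9% without thinning (p = 0.0078, same test). In the *Lepr* lineage, at its lower depth, *Bnip3* was seen in 2 of 160 cells and *Car12* in 8. In the 84 *Grem1*-lineage wells left out for too few genes, *Car12* was seen in 6 wells (7.14%) and *Eno1* in 15 (17.9%). These wells were not thinned and may hold shallow cells, so their shares are no measure of background at equal depth. Whether the low *Car12* share of *Clu*-side cells is expression was not tested.

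**Figure D3:**
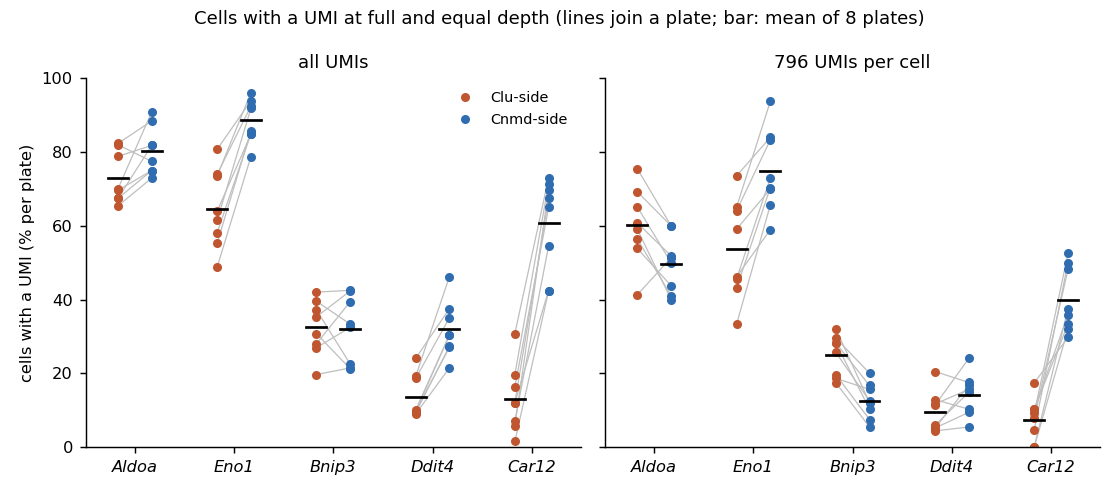
Share of cells with a UMI per plate (percent, 8 plates) for 5 members in *Clu*-side and *Cnmd*-side cells, with all UMIs (left) and with every cell thinned to 796 UMIs (right). Lines join a plate and bars are means over plates. The *Bnip3* means are 32.4% and 31.9% with all UMIs and 24.9% and 12.5% after thinning.

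Members also varied within each group. Among *Cnmd*-side cells, the 27 with the most *Eno1* UMIs held 38.5% of them and a single cell held up to 55. In the *Cnmd*-side group 200 of 270 cells carried both *Aldoa* and *Eno1*, and in the *Clu*-side group 213 of 414 did. *Bnip3* and *Ddit4*, both targets of the hypoxia response, were found together in 15 *Clu*-side cells, where 118 had *Bnip3* alone and 42 *Ddit4* alone, and in 29 *Cnmd*-side cells, where 57 had *Bnip3* alone and 57 *Ddit4* alone. At these depths a well without a UMI of a gene may still have expressed it.

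The second comparison set the 2 *Lepr*-lineage plates beside the 8 *Grem1*-lineage plates, all kept cells summed. The lineages also differed in tissue, enzyme and sort gate, which cannot be told apart from lineage. Of 7 members tested, 6 were lower in the *Lepr* lineage and 1, *Gapdh*, did not pass. Among all 2944 tested genes 29.0% were called, 12.2% higher and 16.8% lower in the *Lepr* lineage. With the minimum of 350 genes counted over the shared genes in both lineages, 863 genes in place of 853 were called and the same 6 members were lower. A gene high in the *Grem1* lineage passed the filter on low counts through that lineage, so the count of members is not support for a direction. The median log2 fold change was -2.77 over the 7 members (-2.17 with *Egln1*, which had no UMI in the *Lepr* lineage, at its bound given below) and -0.11 over all tested genes. The calls of all genes were 358 higher and 495 lower, and with plain library totals 681 higher and 315 lower, with the median of all tested genes moved by 0.46.

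*Eno1* was 388 and 213 on the *Lepr*-lineage plates and between 1101 and 3236 on the *Grem1*-lineage plates. The lineages did not overlap, and the log2 fold change of *Lepr* over *Grem1* was -2.77 (SE 0.50, adjusted p = 6.3e-04). *Aldoa* was 701 and 759 in the *Lepr* lineage and between 1040 and 1557 in the *Grem1* lineage, again without overlap, with a log2 fold change of -0.89 (SE 0.26, adjusted p = 0.016). That call was the weakest of the 6. It was lost with plain library totals (-0.43, adjusted p = 0.27), against *Cnmd*-side cells only (-0.52, adjusted p = 0.13) and without either *Lepr*-lineage plate (adjusted p = 0.061 without plate 1 and 0.057 without plate 2). *Gapdh* was 37.5 and 79.9 against 66.9 to 126, with a log2 fold change of -0.87 (SE 0.45, adjusted p = 0.16). Summed with its listed copies it was 2540 and 2372 in the *Lepr* lineage and between 1443 and 2809 in the *Grem1* lineage, and the estimate took the other sign (0.17, SE 0.28, adjusted p = 0.69).

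*Bnip3* held 2 UMIs on *Lepr*-lineage plate 1 and 0 on plate 2, levels of 25.0 and 0, beside 183 to 379 on the *Grem1*-lineage plates. Of summed counts it was 19.9-fold lower (95% counting interval 5.45 to 165), and the fit gave an adjusted p of 8.0e-05. *Ddit4* was 62.6 and 26.6 in the *Lepr* lineage and between 110 and 281 in the *Grem1* lineage, with a log2 fold change of -2.17 (SE 0.52, adjusted p = 0.0049). Without *Lepr*-lineage plate 2 that call was lost (-1.75, adjusted p = 0.078). The 9 genes of the dissociation response moved with *Ddit4*, itself a stress gene. All 9 were lower in the *Lepr* lineage, with summed levels of 5143 and 3811 beside 16584 to 37763 in the *Grem1* lineage, and their part in the *Ddit4* difference was not tested. *Ankrd37* held 16 *Grem1*-lineage UMIs and 0 in the other lineage, and its *Grem1*-lineage mean of 13.0 lies under the 19.4 that 3 UMIs over both *Lepr*-lineage plates would give, so no fold is given.

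*Egln1* had no UMI in the *Lepr* lineage and a mean level of 60.8 ± 25.4 (SD, n = 8) in the *Grem1* lineage. Against the level of 3 UMIs over both *Lepr*-lineage plates it was at least 3.14-fold lower. The fit, which tests for any difference and not for this bound, gave an adjusted p of 0.0058. *Egln1* passed the filter on low counts through the *Grem1* lineage only. *Egln3* held 5 *Lepr*-lineage UMIs, all on plate 2, beside 20 of *Grem1*-lineage cells, and was not tested. *Car12* was 37.5 and 66.6 in the *Lepr* lineage and between 182 and 613 in the *Grem1* lineage, without overlap, with a log2 fold change of -3.36 (SE 0.51, adjusted p = 1.8e-04). *Clu*-side cells, at 13.8 to 301, spanned both *Lepr*-lineage values, and the gene was too low to be tested between these groups.

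**Figure D4:**
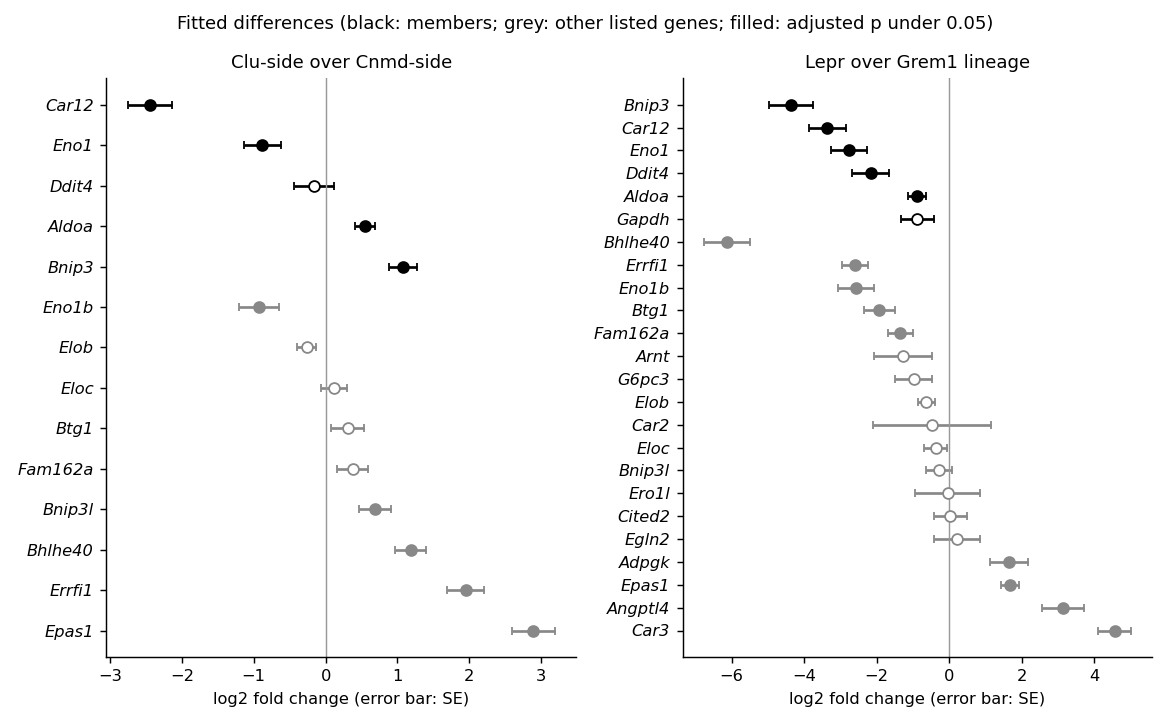
Fitted log2 fold changes with SE of *Clu*-side over *Cnmd*-side cells (left, 8 plates each) and of the *Lepr* over the *Grem1* lineage (right, 2 and 8 plates). Black points are members and grey points other listed genes, filled where the adjusted p is under 0.05, and genes with 0 *Lepr*-lineage UMIs are left out. *Car12* lies at -2.44 and *Bnip3* at 1.08 on the left, and both lie below -3 on the right.

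Other genes of the same pathways were read from lists. Of 18 other hypoxia response genes 5 were tested between the cell groups, and 3 rose in *Clu*-side cells while 2 did not pass. *Errfi1*, a feedback inhibitor of the EGF receptor, ran from 1718 to 3191 in *Clu*-side and from 264 to 1003 in *Cnmd*-side cells, without overlap (log2 fold change 1.95, SE 0.25, adjusted p = 3.5e-06). *Bhlhe40*, a transcriptional repressor induced by HIF and by the circadian clock, ran from 2042 to 3315 and from 519 to 1793, also without overlap (1.19, SE 0.22, adjusted p = 2.1e-04). *Bnip3l*, the paralogue of *Bnip3* in mitophagy, gave 0.68 (SE 0.22, adjusted p = 0.019), a call lost with plain library totals (0.37), without plate 4 (0.61, adjusted p = 0.051) and without plates 5, 7 and 9 (0.80, adjusted p = 0.058). *Btg1* and *Fam162a* did not pass (0.31 and 0.38). The list had a median of 0.68 over its tested genes, beside -0.02 over all tested genes. Among all tested genes 19.7% rose in *Clu*-side cells, so calls counted in these lists are not read as particular to them.

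Of 7 other oxygen sensing genes that both tables list, 3 were tested between the cell groups and 1 rose. *Epas1*, which encodes HIF2A, ran from 193 to 271 in *Clu*-side cells and from 0 to 64.8 in *Cnmd*-side cells, without overlap (log2 fold change 2.89, SE 0.30, adjusted p = 1.5e-07). *Epas1* passed the filter on low counts through the *Clu*-side group, where it was high. It was also higher in the *Lepr* lineage, at 338 and 440 beside 92.8 to 141 on the *Grem1*-lineage plates (1.69, SE 0.26, adjusted p = 1.6e-04). *Elob* and *Eloc*, the elongins of the VHL complex, did not pass in either comparison. Of 15 other glycolysis and gluconeogenesis genes only *Eno1b* was high enough to be tested between the cell groups, and none of 14 other carbonic anhydrases was.

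Between the lineages the other hypoxia response genes divided. Of 8 tested, 4 were lower in the *Lepr* lineage (*Bhlhe40*, *Errfi1*, *Btg1* and *Fam162a*) and 1 was higher, beside 16.8% and 12.2% of all tested genes. *Bhlhe40* was 50.1 and 0 in the *Lepr* lineage beside 1075 to 2251. It rested on 4 *Lepr*-lineage UMIs, all on plate 1, and of summed counts it was 64.9-fold lower (95% counting interval 25.3 to 238), with an adjusted p of 4.6e-06 in the fit. *Fam162a* lost its call without *Lepr*-lineage plate 1 (adjusted p = 0.070), with plain library totals (-0.90, adjusted p = 0.087) and against *Cnmd*-side cells only (adjusted p = 0.060). *Angptl4*, a secreted inhibitor of lipoprotein lipase, was the one that was higher, at 200 and 279.8 beside 0 to 63.1 (3.15, SE 0.57, adjusted p = 6.6e-04). Of 3 other carbonic anhydrases tested, *Car3*, a cytosolic enzyme abundant in fat and muscle, was higher at 738 and 653 beside 6.19 to 66.4 (4.57, SE 0.45, adjusted p = 2.9e-06), and *Car8*, with 0 *Lepr*-lineage UMIs, was at least 3.51-fold lower. Of 4 other glycolysis genes tested, *Adpgk*, an ADP-dependent glucokinase, was higher (1.65, SE 0.52, adjusted p = 0.025), *Eno1b* was lower (-2.57), *Bpgm*, with 0 *Lepr*-lineage UMIs, was at least 3.14-fold lower, and *G6pc3* did not pass. Without either *Lepr*-lineage plate the calls of *Adpgk* (adjusted p = 0.17 without plate 1 and 0.11 without plate 2), *Bpgm* (0.12 and 0.13) and *Car8* (0.053 and 0.060) were lost.

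**Figure D5:**
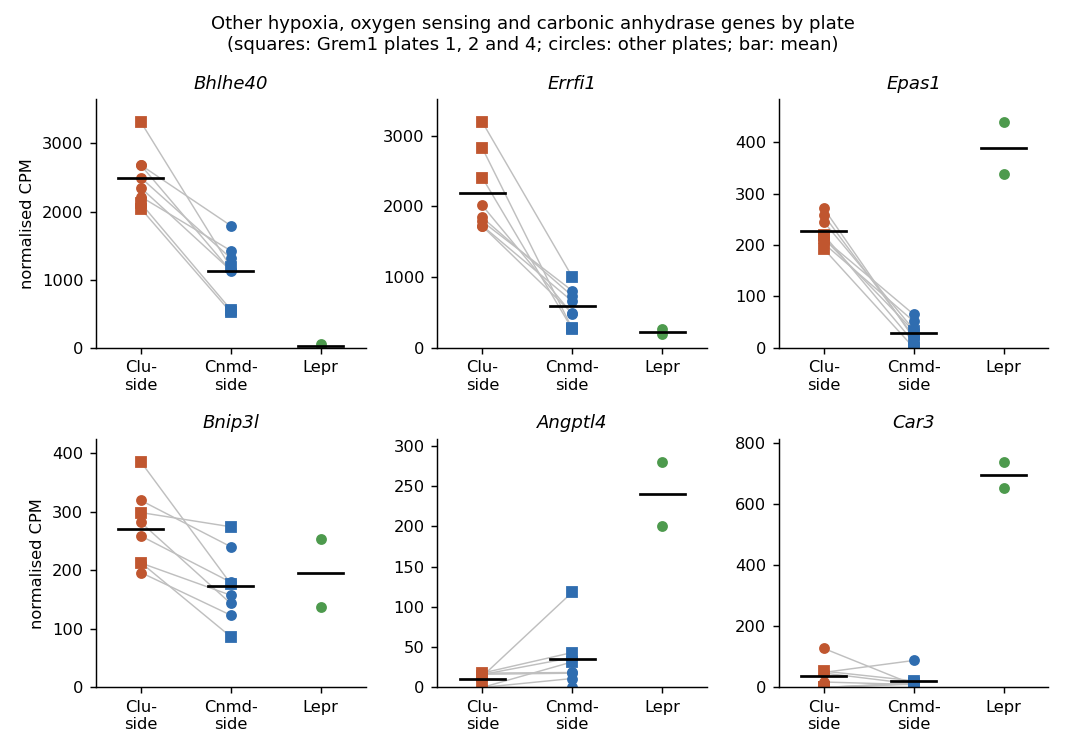
Normalised CPM per plate of 6 other listed genes in *Clu*-side, *Cnmd*-side and *Lepr*-lineage cells (grey lines join a plate, squares are *Grem1*-lineage plates 1, 2 and 4, bars are means). *Bhlhe40*, *Errfi1* and *Epas1* do not overlap between the *Clu*-side and *Cnmd*-side groups, and *Angptl4* and *Car3* are highest in the *Lepr* lineage.

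Further genes of these pathways were read in the *Lepr* lineage only, and were not analysed here in the *Grem1* lineage. Of 21 glycolysis and lactate genes, 19 had a UMI, 386 UMIs in all. *Pkm*, pyruvate kinase, was 372 and 289 CPM of all genes on the 2 plates, and *Ldha*, a subunit of lactate dehydrogenase, was 277 and 199. *Slc2a3*, a glucose transporter, was 126 and 6.87, and its 21 UMIs were nearly all on plate 1. Of 11 hypoxia genes 10 had a UMI, 79 UMIs in all. *Hif1a* had 11 UMIs in 8 cells, and *Vegfa*, an angiogenic factor, had 7 in 7 cells.

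The genes whose levels ran most like those of the most abundant member of each role were found over 18 sums (8 *Clu*-side, 8 *Cnmd*-side and 2 *Lepr*-lineage) among 2604 genes with a mean of at least 50 CPM. The sums share libraries and differ in depth, so Pearson's r of log2 CPM is given as a description. For *Eno1* these were *Eno1b* (0.99), *Fkbp10* (0.94) and *Eef1g* (0.93). For *Bnip3* they were *Cpe* (0.92), *Bhlhe40* (0.92) and *2010111I01Rik* (0.91). For *Car12* they were *Epyc* (0.94), *2700038G22Rik* (0.90) and *Gm15500* (0.90), and *Epyc* is one of the growth plate markers above. For *Egln1*, with few UMIs, they were *C230062I16Rik* (0.80), *Gm16379* (0.77) and *Cdr2* (0.71).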

How the data were processed

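The authors deposited a table of UMI counts per gene and well for each lineage. Per the labels, the reads were processed with UMI-tools, STAR, featureCounts, SAMtools and Seurat on the mouse build mm10, and the versions of the alignment and counting tools, strand and the treatment of reads matching several genes are not given in the sources used here. The comparisons used 29183 genes, the complete rows for *Grem1*-lineage cells (1 incomplete row was left out). These rows end within the symbols beginning with Gm5, and further genes were read in the *Lepr* lineage only and not analysed here in the *Grem1* lineage.

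UMI counts were summed per plate and cell group (at least 10 cells each), and plates were the replicates. Since the mice behind a plate are unknown, p-values measure the spread between plates, which may be technical. The comparisons used edgeR 4.0.16 (R 4.3.3) with filterByExpr, TMM factors, the quasi-likelihood test and Benjamini-Hochberg adjustment over all tested genes at 0.05. Printed levels use TMM factors over all sums and the total UMIs of the genes in both tables. Shares of cells were compared after thinning to the 10th percentile of UMIs per *Grem1*-lineage cell (796), with exact sign-flip permutation tests over plates. The exact p-values, also those of equal weighting, were not adjusted over the members, which were chosen with results known. Equal weighting used log2(mean CPM + 1). Intervals and limits for a count of 0 (3 counts) cover counting error only. No doublet caller was run, since cells were sorted singly. Near-identical genes were found with BLAST+ 2.17.0+ against GENCODE M21 transcripts of GRCm38 (at least 95% identity over 100 bases). Alternatives were DESeq2 1.42.0 and its size factors, plain library totals, no filter, other filters on cells, each plate left out, plate blocks and plate sets (the plate sets, plain totals and summed copies were chosen after seeing the data). The edgeR and DESeq2 fits were also run on simulated counts with independent sums and no plate effect. The sums here are paired by plate, so that run does not speak to this pairing.

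The genes, the lists and the division of cells were chosen with earlier results of these data known. All 10 members are named. Of the other lists, those past the threshold are named, up to 5 per list and direction, with other genes by counts, and *Btg1*, *Fam162a*, *Elob*, *Eloc*, *G6pc3* and the genes read in the *Lepr* lineage only were named after their values were seen. For likeness the 3 genes with the highest correlation are named. Same-plate *Clu*-side and *Cnmd*-side sums deviated together (correlation between 0.19 and 0.45, above 0.1 on 8 of 8 plates), so the plate pairs them.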

Additional observations from a re-analysis of the deposited data

How the results depend on the processing

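Over the members and alternatives, 108 values of the *Clu*-side and *Cnmd*-side comparison kept their direction and side of the threshold, 4 lost and 1 gained a call and 2 turned. Between lineages 139 kept them, 8 lost a call and 1 turned. Values with cells weighted equally were judged by their unadjusted exact p, and all others by adjusted p. The count of genes that differed between *Clu*-side and *Cnmd*-side cells was 444, and it was 710 with no filter on low counts (12514 genes tested) and 239 with plates 1, 2 and 4 only and 261 without plates 5, 7 and 9 (fewer plates). With each plate left out it ran from 385 to 441. With the plate as a block, which pairs the sums, it was 515, and this block changed no member's call (*Eno1* -0.80, *Bnip3* 1.08).

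With no filter *Aldoa* was 0.40 (adjusted p = 0.33). *Ddit4*, not called, took the other sign without plate 8 (its values with a plate left out ran from -0.26 to 0.0043) and with plates 1, 2 and 4 only (0.20), and *Fosb* was 0.029 there against -0.97 over all plates. The cause was not tested.

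The count between lineages was 853, with 529 to 850 as each plate was left out (529 without *Lepr*-lineage plate 2, where 1 *Lepr*-lineage plate is assumed to vary like the others). With plates 1 and 2 of each lineage it was 489 with the plate number as a block and 451 without it. These numbers only name plates across lineages, since same-numbered plates correlated by 0.0070 and 0.070, and *Aldoa* was not called in either fit (adjusted p = 0.14 and 0.083). *Gapdh* summed with its copies reversed to 0.17.

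Of the 5 members also tested in the fit, 4 differed in their share of cells at equal depth, and 3 or 4 under each alternative, not always the same. These calls rest on unadjusted p-values under 0.05 of the exact permutation test. Shares were not compared for all genes, so this count is not read as particular to the members. *Aldoa* reversed without thinning (-7.55 points), where *Bnip3* was lost and *Ddit4* gained a call, and *Ddit4* also gained one without plate 5 or 6 (p = 0.047 each, exact permutation test). At 398 UMIs *Aldoa* gave 3.12 points (p = 0.18, exact permutation test), and it lost its call without any one of 5 plates, where 7 plates cannot go below 0.016. Depth limits *Egln1*, *Egln3*, *Ankrd37* and *Gapdh*, which held between 16 and 114 UMIs over 684 cells.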
